A study of Rattus norvegicus with 8 samples.

Results

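Genes of the mitochondrial ribosome were followed in the hearts of aged female rats. They were all genes whose array symbol begins with Mrpl or Mrps followed by a number, taken from probe sets annotated to exactly 1 symbol, with the brightest probe set standing for each gene. The rule found 73 genes among the 14217 genes that have such a probe set. It used names and brightness only, and no comparison between groups. Of the 73, 48 encode proteins of the large subunit, counting Mrps30 and Mrps18a, which sit there in spite of their names, and 25 encode proteins of the small subunit. By descent, 41 were listed as having a counterpart in the bacterial ribosome, and the other 32 are counted here as specific to mitochondria. The 32 include Mrps18a, although its protein is also a form of bacterial S18. They also include Mrpl47 and Mrpl55, which have bacterial counterparts too.

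The hearts came from Norway Brown rats aged 18 to 22 months. Sham animals had the body cavity opened and closed again. A second group had the ovaries removed. Animals with early estradiol had the same operation and, during it, a 0.5 mg pellet of 17-β estradiol placed under the skin of the neck, which releases the hormone over 90 days, and animals with late estradiol received that pellet 9 weeks after ovariectomy. Ovariectomy is therefore common to all groups except sham, and the age at which tissue was taken is given for the study only as a range. Each of the 8 Affymetrix arrays held RNA pooled from 3 hearts, with 2 pools per group. The spread between arrays is thus one between pools, part of which may be technical, and no single animal was measured. Whole heart RNA was used, so fewer cells of a type and less RNA per cell cannot be told apart.

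Mitochondrial ribosomes translate the few proteins that mitochondrial DNA encodes, all of them subunits of the respiratory chain and the ATP synthase. Their RNA comes from mitochondrial DNA, but every one of their proteins is encoded in the nucleus, made in the cytosol and imported, so the 2 genomes must be expressed together. Heart muscle is dense in mitochondria, and inherited defects of several of these proteins cause cardiomyopathy in people.

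The arrays differed in brightness. By the 2% trimmed mean of the deposited signal, replicate 1 arrays ran from 28.1 to 69.8 and replicate 2 arrays from 104 to 137, and late estradiol replicate 1 was the dimmest. The 3′ to 5′ ratio of Gapdh probe sets there was 2.70, against 1.26 to 1.65 elsewhere, while that of actin was 3.01, against 1.71 to 3.06. Values below are log2 signals after quantile normalization, and a difference of 1 is a factor of 2. The 7 cardiomyocyte markers measured, among them Myh6 and Tnnt2, had a mean log2 signal of 12.58 to 12.75 on every array. They lie near the top of the signal range, where the highest probe set had a mean of 13.3. Quantile normalization gives every array the same range of values, so this steadiness is partly set by it. It does not measure whether cardiomyocyte content was equal. In the limma fit over all 8 arrays, 0 of 18625 probe sets passed a Benjamini-Hochberg adjusted p of 0.05 in any of the 6 comparisons of groups, and 0 passed in the F test over the 4 groups.

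All 73 genes passed the filter on dim probe sets. Their mean log2 signal over the 8 arrays had a median of 8.70 and ran from 6.88 to 10.3, against a median of 5.72 over all probe sets kept. The members thus lay between percentiles 72 and 97.4 of the probe sets kept. The brightest probe sets were those of Mrpl54 (10.31), Mrpl33 (10.02), Mrpl41 (9.98), Mrpl15 (9.94) and Mrpl17 (9.94). The dimmest were those of Mrps27 (6.88), Mrps18c (7.04), Mrpl38 (7.11), Mrpl10 (7.17) and Mrps5 (7.25). Signal of different probe sets also depends on their probes, so this order is one of brightness and not of transcript amount.

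The genes varied little. The residual SD, which is the spread of the arrays within groups on the log2 scale, had a median of 0.18 over the members, against 0.395 over all probe sets kept. Bright probe sets vary less, and the 1489 kept probe sets within the members' interquartile range of brightness had a median of 0.219. The 44 cytosolic ribosomal protein genes kept had a median of 0.189. A member's highest and lowest arrays lay a median of 0.49 apart. The steadiest member was Mrps21, the counterpart of bacterial S21, with a residual SD of 0.0413. Mrps18b (0.0698), Mrpl2 (0.0756), Mrpl34 (0.0864) and Mrpl13 (0.0893) followed. The most variable were Mrps11 (0.611), Mrps22 (0.513), Mrpl46 (0.483), Mrps27 (0.41) and Mrpl52 (0.352).

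Set against each gene's own mean, the members as a group lay low on early estradiol replicate 1. On that array 64 of 73 were below their mean, with a median deviation of -0.15, while 53.7% of all kept probe sets were above theirs. Late estradiol replicate 1 had 46 of 73 below their mean, with a median of -0.09. Ovariectomy replicate 1 had 41 below, with a median of -0.02. On the other arrays between 21 and 32 members were below, with medians of 0.04 to 0.10. The other early estradiol array, replicate 2, had 32 below and a median of 0.04, so the 2 early pools did not lie together.

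**Figure D1:**
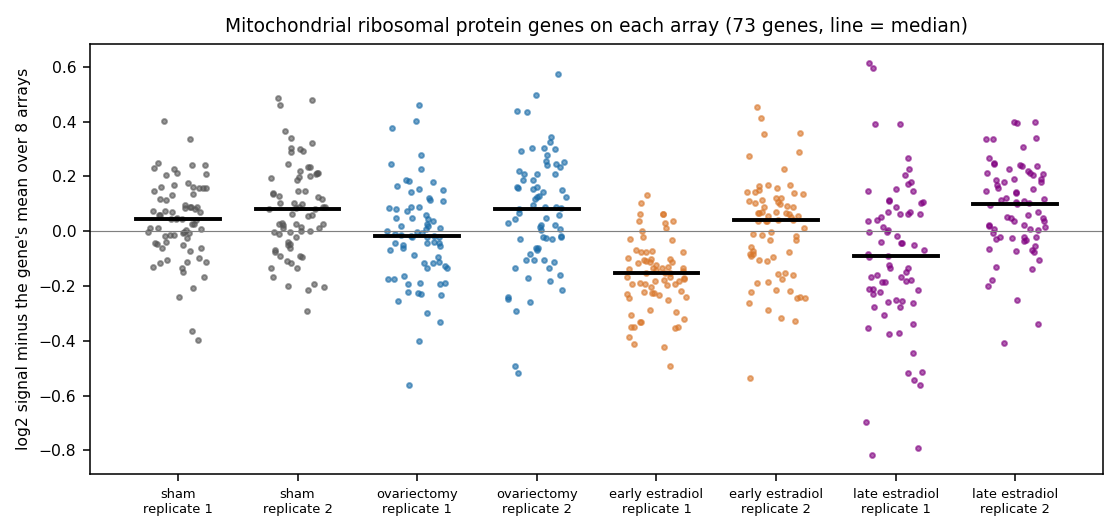
Each point is 1 of the 73 genes, plotted as its log2 signal on that array minus its mean over the 8 arrays, and the black line is the median of the genes. The points of early estradiol replicate 1 sit lowest as a group, with a median of -0.15, and those of late estradiol replicate 1 spread widest, with a median of -0.09.

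By group mean, early estradiol was the lowest of the 4 groups for 36 of 73 members (49.3%), against 21.8% of all kept probe sets. Late estradiol was lowest for 19 members (26.0%, against 31.2%), ovariectomy for 13 (17.8%, against 27.5%) and sham for 5 (6.85%, against 19.5%). Sham was highest for 33 members (45.2%, against 23.2%) and early estradiol for 3 (4.11%, against 23.7%). This order was taken after quantile normalization and depends on it. After median scaling, late estradiol lay below early estradiol for 69 of 73 members (94.5%, against 71.4% of all probe sets). Without early estradiol replicate 1 it did so for 42 members (57.5%, against 53.1%). In the F test over the 4 groups 0 members passed, and 1 member, Mrps2, had an unadjusted p under 0.05 (limma F test, unadjusted p = 0.0365, adjusted p = 1), where 1.86% of all probe sets did.

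The comparison of ovariectomy with sham surgery asks what loss of the ovaries does to these transcripts. They differed little after quantile normalization. After ovariectomy 44 of 73 lay lower, against 53.3% of all kept probe sets, with a median difference of -0.04, against -0.03 over all. The scaling mattered here. After median scaling 70 of 73 lay lower (95.9%, against 68.1%), with a median of -0.28 against -0.17. Without normalization between arrays 71 did (97.3%, against 78.2%), with -0.42 against -0.31. A total of 56 members (76.7%) differed by less than 0.2, as 45% of all probe sets did. Of the members, 0 passed and 0 had an unadjusted p under 0.05 (limma), where 1.47% of all probe sets did. The arrays of both groups did not overlap for 6 members with higher and 13 with lower values after ovariectomy, that is 8.22% and 17.8%, close to the 11.0% and 14.1% of all probe sets. The median was -0.09 between the replicate 1 arrays and 0 between the replicate 2 arrays, and it was 0.01 without ovariectomy replicate 1. Over a 1.5-fold difference lay 0 members, against 9.48% of all probe sets lower and 8.01% higher.

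Mrpl34, the counterpart of a small bacterial large-subunit protein, had the smallest p after ovariectomy. Its log2 signal was 8.22 and 8.12 in sham, 8.58 and 8.57 after ovariectomy, 8.19 and 8.39 under early estradiol, and 8.25 and 8.35 under late estradiol. The ovariectomy arrays were above the other 6. The difference from sham was 0.40 ± 0.19 (limma standard error, n = 2 arrays per group here and below) and did not pass (limma unadjusted p = 0.056, adjusted p = 1). Mrpl52, a large-subunit protein specific to mitochondria, stood at 0.50 ± 0.31, but its second probe set differed the other way, by -0.26. Mrpl47 stood at 0.22 ± 0.19. Among those lower, Mrps31, a small-subunit protein specific to mitochondria, had 7.50 and 7.87 in sham and 7.36 and 6.89 after ovariectomy. It differed by -0.56 ± 0.30, of which -0.14 was seen between the replicate 1 arrays and -0.98 between the replicate 2 arrays. Mrpl51 (-0.27 ± 0.17) and Mrpl16 (-0.23 ± 0.17) followed, and the 3 other probe sets of Mrpl51 lay at 0.03, 0.09 and 0.29.

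The comparisons share arrays with each other, the sham and ovariectomy arrays among them, and are not independent. Compared with sham, the genes as a set lay lower. Of 73 members, 63 were lower with early estradiol, against 50.1% of all kept probe sets (49.9% were higher), and the median difference was -0.15, against 0 over all. In linear terms most of these differences are small, since 53 of 73 were within 0.2 of 0, and 0 members differed over 1.5-fold, where 5.73% of all probe sets were lower and 6.89% higher by that much. The arrays of both groups did not overlap for 21 members with lower values (28.8%, against 12.7% of all probe sets) and 2 with higher values (2.74%, against 12.1%). In both replicate numbers 42 members were lower (57.5%, against 24.5%) and 3 higher (4.11%, against 23.1%). Of the members 0 passed and 0 had an unadjusted p under 0.05 (limma), where 0.773% of all probe sets did.

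This difference was larger between the replicate 1 arrays. Between the replicate 1 arrays the members' median was -0.18, with 66 of 73 lower, and between the replicate 2 arrays it was -0.05, with 46 lower. Without early estradiol replicate 1 the median was -0.04 and 40 members were lower. Without early estradiol replicate 2 it was -0.22 and 65 were lower. The scaling of the arrays mattered as well. Without normalization between arrays the median was -0.30 with 71 of 73 lower, where all probe sets had a median of -0.14, and after scaling to the array median it was -0.14 with 62 lower, where all probe sets had 0.03.

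Mrpl55, a large-subunit protein, had the smallest p of the members for early estradiol against sham. Its log2 signal was 8.76 and 8.97 in sham and 8.69 and 8.86 after ovariectomy. It was 8.34 and 8.64 under early estradiol and 8.46 and 8.65 under late estradiol. Both estradiol groups lay below sham and ovariectomy. The difference of early estradiol from sham was -0.38 ± 0.20 (limma unadjusted p = 0.0838, adjusted p = 1). Mrpl32, whose maturation by a mitochondrial protease is a step of ribosome assembly, had 8.31 and 8.49 in sham and 8.35 and 8.24 after ovariectomy, then 7.97 and 8.01 under early and 7.89 and 8.31 under late estradiol. Its early arrays lay below all sham and ovariectomy arrays, and it differed from sham by -0.40 ± 0.21. Mrps33, a small-subunit protein, differed by -0.34 ± 0.19. Those with higher values were few. Mrpl52 stood at 0.30 ± 0.31, with its second probe set at -0.17, Mrpl10 at 0.15 ± 0.25 and Mrpl34 at 0.12 ± 0.19, with -0.03 between the replicate 1 and 0.27 between the replicate 2 arrays.

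Against ovariectomy, which asks what replacement from the day of surgery does, 56 of 73 members lay lower with early estradiol, where 47.1% of all probe sets did. The median was -0.12, against 0.02 over all, and it was -0.16 between the replicate 1 arrays and -0.08 between the replicate 2 arrays. The arrays did not overlap for 19 members with lower values (26.0%, against 12.3%) and 3 with higher values (4.11%, against 14.7%). In both replicate numbers 41 were lower (56.2%, against 23.6%) and 8 higher (11.0%, against 26.9%), and 0 differed over 1.5-fold, where 8.06% of all probe sets were lower and 10.5% higher by that much. The sign of the median depended on the scaling, which moved all probe sets. Without normalization between arrays 62 of 73 were higher and the median was 0.10, and after median scaling 63 were higher with a median of 0.12, while the medians of all probe sets were 0.18 and 0.20. Relative to all probe sets the members therefore lay 0.08 lower under both settings and 0.15 lower after quantile normalization. Of the members 0 passed and 0 had an unadjusted p under 0.05 (limma), where 1.71% of all probe sets did. Without early estradiol replicate 1 the median was -0.02 with 40 lower, and without early estradiol replicate 2 it was -0.20 with 62 lower.

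The lower genes of smallest p were all of the large subunit. Mrpl43 stood at -0.30 ± 0.18 with early estradiol against ovariectomy. Mrpl40, specific to mitochondria, had 8.67 and 8.88 in sham and 8.78 and 8.90 after ovariectomy, then 8.49 and 8.60 under early and 8.49 and 8.46 under late estradiol. All 4 estradiol arrays lay below the 4 arrays without it. Its difference was -0.29 ± 0.18 for early and -0.36 ± 0.18 for late estradiol against ovariectomy, and its second probe set lay at -0.08 and -0.13. Mrpl34 was lower by 0.28 on the log2 scale, back to 8.29 from its mean of 8.57 after ovariectomy. Of those higher, Mrpl51 stood at 0.26 ± 0.17, with its 3 other probe sets between -0.22 and -0.06. Mrpl58, a release factor built into the large subunit that frees stalled peptides, stood at 0.16 ± 0.19, with 0.29 between the replicate 1 and 0.03 between the replicate 2 arrays, and 0.02 without ovariectomy replicate 1. Mrpl48 stood at 0.16 ± 0.19, with -0.01 and 0.33 in that order, and 0.06 without early estradiol replicate 2.

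**Figure D2:**
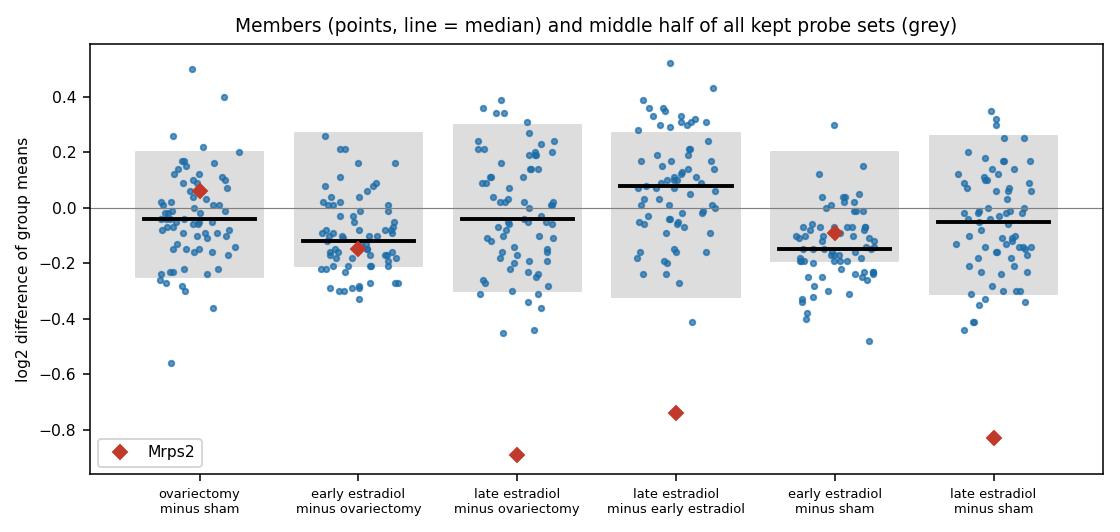
Points are the 73 genes, as log2 differences of group means for the 6 comparisons, the black line is their median, the red diamond is Mrps2 and the grey box is the interquartile range of all 18625 kept probe sets. The medians of early estradiol against sham and against ovariectomy are -0.15 and -0.12, and Mrps2 lies below the other genes in the 3 comparisons of late estradiol, at -0.89, -0.74 and -0.83; the median of early estradiol against ovariectomy is 0.10 without normalization between arrays, where that of all probe sets is 0.18.

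Late estradiol against ovariectomy asks what the same pellet does when started after 9 weeks. Here the members were split. Of 73, 38 were lower and 35 higher, with a median of -0.04, against 48.8% lower, 51.2% higher and a median of 0.01 over all probe sets. The arrays did not overlap for 14 members with higher values (19.2%, against 15.7%) and 11 with lower values (15.1%, against 13.4%), which is near the share of all probe sets. Of the members 0 passed, and 1 had an unadjusted p under 0.05 in limma, where 4.36% of all probe sets did. Left unnormalized, 72 of 73 were lower, with a median of -0.41 against -0.31 over all probe sets. After median scaling 53 were lower, with a median of -0.16 against -0.06. Without late estradiol replicate 1 the median was 0.04, with 29 lower. Without late estradiol replicate 2 it was -0.10, with 46 lower.

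The member with the small p was Mrps2, the counterpart of bacterial S2, a protein whose loss impairs the assembly of the small subunit. Its log2 signal was 7.73 and 7.35 in sham, 7.73 and 7.47 after ovariectomy, 7.16 and 7.74 under early estradiol, and 6.51 and 6.92 under late estradiol. Both late arrays lay below the other 6. The difference of late estradiol from ovariectomy was -0.89 ± 0.28, that is 1.85-fold lower, with -1.22 between the replicate 1 arrays and -0.55 between the replicate 2 arrays (limma unadjusted p = 0.011, adjusted p = 0.943). From early estradiol it was -0.74 ± 0.28 (limma unadjusted p = 0.0273, adjusted p = 0.987), or -0.44 without early estradiol replicate 2, and from sham -0.83 ± 0.28 (limma unadjusted p = 0.0158, adjusted p = 0.997). Without late estradiol replicate 1, the dimmest array, the difference from ovariectomy was -0.69. A block for the replicate number cannot change the difference, and with it the limma adjusted p was 0.604. Mrps2 was the only member over 1.5-fold in any comparison, and it was so in the 3 of late estradiol, where 12.5% (against ovariectomy), 13.6% (against early estradiol) and 12.4% (against sham) of all probe sets were lower by that much and 11.6%, 9.78% and 10.0% higher. The array has 2 more probe sets for Mrps2. The one kept by the filter differed by 0.23, and the other, too dim to be kept, by -1.95.

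The 200 bases before the start of Mrps2 are shown because it had the largest difference of the members with late estradiol against ovariectomy, and those of Mrpl17 because it was next in size there. Both come from the RefSeq promoters of build GRCr8, are written 5′ to 3′ along the gene and end at the base before the start. Mrps2 lies at chr3:32200877-32201076 on the plus strand, and Mrpl17 at chr1:169575700-169575899 on the minus strand. Capitals mark matches to the core of the NRF1 motif, GCATGCG, on either strand.
Mrps2: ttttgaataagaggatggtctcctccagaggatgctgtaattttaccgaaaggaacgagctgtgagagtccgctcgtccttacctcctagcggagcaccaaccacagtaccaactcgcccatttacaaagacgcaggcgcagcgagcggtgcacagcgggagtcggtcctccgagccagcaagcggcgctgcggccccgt
Mrpl17: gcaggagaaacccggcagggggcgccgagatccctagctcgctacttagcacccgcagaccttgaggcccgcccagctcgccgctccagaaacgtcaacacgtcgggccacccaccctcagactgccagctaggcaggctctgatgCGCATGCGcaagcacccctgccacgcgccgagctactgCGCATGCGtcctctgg
The window of Mrps2 held 0 matches to any of the 4 motifs searched. That of Mrpl17 held 4 matches to the NRF1 core, since each run of capitals reads as a match on both strands.

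Mrpl17, the counterpart of bacterial L17, had 10.19 and 9.87 in sham, 9.99 and 10.15 after ovariectomy, 9.84 and 10.23 under early and 9.38 and 9.87 under late estradiol. The late replicate 1 array was low, and the late replicate 2 array lay at the level of the lower sham and early arrays. Late estradiol differed from ovariectomy by -0.45 ± 0.22, and by -0.20 without late estradiol replicate 1. Among members with higher values with late estradiol than after ovariectomy, Mrpl33, the counterpart of bacterial L33, had 10.17 and 10.29 against 9.85 and 9.92. The late arrays were the highest of the 8. The difference was 0.34 ± 0.16 (limma unadjusted p = 0.0552, adjusted p = 0.943). Mrpl51 stood at 0.34 ± 0.17 with 1 of its 3 other probe sets at -0.14. Mrps35, specific to mitochondria, stood at 0.36 ± 0.24, of which 0.64 came from the replicate 1 arrays and 0.07 from the replicate 2 arrays. On unnormalized values Mrpl33, Mrpl51 and Mrps35 were at -0.03, -0.06 and -0.04, where all probe sets had a median of -0.31.

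Late against early estradiol compares pellets begun at different times after the same operation. The labels do not say when hearts were taken relative to the pellets, so length of exposure and remaining hormone cannot be told apart from the time of the start. Of 73 members 48 were higher with late estradiol, where 49.3% of all probe sets were higher and 50.7% lower, and the median was 0.08, against -0.01. The arrays did not overlap for 20 members with higher values (27.4%, against 15.5%) and 2 with lower values (2.74%, against 16.3%). Between the replicate 1 arrays the median was 0.05 and between the replicate 2 arrays 0.09. In both replicate numbers 30 members were higher (41.1%, against 27.9%) and 11 lower (15.1%, against 28.1%). Leaving out 1 array, which also leaves the replicate numbers unbalanced, moved the median across 0. Without early estradiol replicate 1 the median was -0.04 and 42 members were lower, and without early estradiol replicate 2 it was 0.16 and 12 were lower. Without late estradiol replicate 1 it was 0.16, and without late estradiol replicate 2 it was -0.03. On values not normalized between arrays the median was -0.52, against -0.48 over all probe sets, and after median scaling it was -0.29, against -0.25.

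In that comparison 0 members passed and 2 had an unadjusted p under 0.05 in limma, where 3.87% of all probe sets did. These were Mrps2, lower, and Mrpl13, the counterpart of bacterial L13, higher. Mrpl13 had 9.40 and 9.30 with early and 9.65 and 9.77 with late estradiol, 9.49 and 9.68 in sham, and 9.56 and 9.48 after ovariectomy. Its early arrays were the lowest of the 8. It differed by 0.36 ± 0.16 (limma unadjusted p = 0.0492, adjusted p = 0.987). Mrps21 had 8.97 and 8.92 with early and 9.30 and 9.23 with late estradiol, 8.94 and 8.98 in sham and 9.16 and 9.09 after ovariectomy. The arrays of each group lay close together, late estradiol was highest, ovariectomy next, and sham and early estradiol overlapped. Mrps21 differed by 0.31 ± 0.16 from early estradiol and 0.30 ± 0.16 from sham, and by -0.07 from each after median scaling, where all probe sets had medians of -0.25 and -0.23. Mrps35 stood at 0.52 ± 0.24, Mrpl17 at -0.41 ± 0.22, and Mrps34, a protein needed for a stable small subunit, at -0.24 ± 0.28, or 0.14 without early estradiol replicate 2. On unnormalized values Mrpl13 and Mrps35 were at -0.22 and -0.10, where all probe sets had a median of -0.48.

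Late estradiol against sham gave 47 of 73 members lower, where 51.9% of all probe sets were, with a median of -0.05, against -0.02. Without late estradiol replicate 1 the median was 0.03, with 32 lower. The arrays did not overlap for 12 members with lower values (16.4%, against 16.1%) and 7 with higher values (9.59%, against 14.5%). Of the members 0 passed and 1, Mrps2, had an unadjusted p under 0.05 in limma, where 3.37% of all probe sets did. Mrpl17 and Mrpl50 stood at -0.41 ± 0.22 and -0.41 ± 0.24. Mrpl17 had -0.81 between the replicate 1 arrays and -0.01 between the replicate 2 arrays, and Mrpl50 had -0.46 and -0.36. Mrps35 and Mrpl53, both specific to mitochondria, stood at 0.35 ± 0.24 and 0.25 ± 0.19, and at -0.02 and -0.14 after median scaling. The members' median was then -0.42, against -0.23 over all, and without normalization between arrays it was -0.80, against -0.62. Ovariectomy against sham moved likewise, to -0.28 against -0.17 after median scaling, with 70 of 73 lower, and -0.42 against -0.31 without normalization, with 71 lower.

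**Figure D3:**
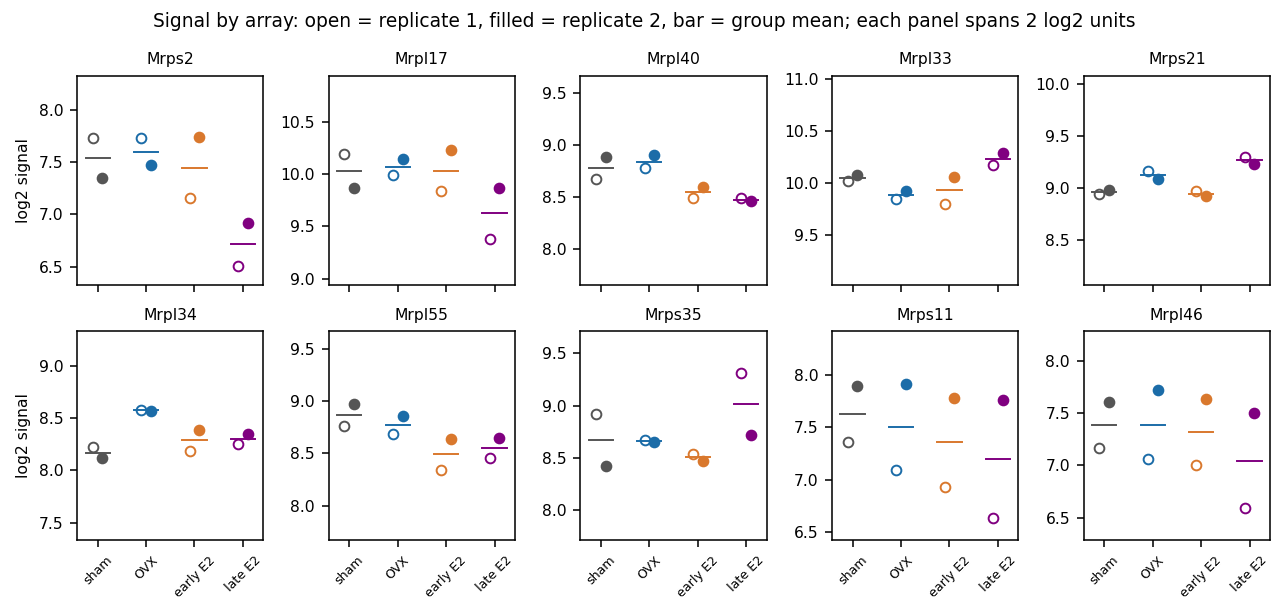
Log2 signal of 10 genes in the 4 groups, with replicate 1 open, replicate 2 filled and the group mean as a bar, where E2 is estradiol, OVX is ovariectomy and each panel spans 2 log2 units. Mrps2 is lowest with late estradiol at 6.51 and 6.92, Mrps21 is tight within groups, and Mrps11 and Mrpl46 show the replicate 2 array above the replicate 1 array in every group.

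The subunits had like medians with early estradiol. With early estradiol against sham, 41 of 48 large-subunit genes lay lower with a median of -0.14, and 22 of 25 small-subunit genes with a median of -0.17. Against ovariectomy the counts were 39 of 48 with -0.12 and 17 of 25 with -0.13. The genes listed with a bacterial counterpart had a median of -0.12 for early estradiol against sham (35 of 41 lower). The other members, Mrpl47, Mrpl55 and Mrps18a among them, had -0.16 (28 of 32 lower). Against ovariectomy these medians were -0.10 and -0.16. With late estradiol against ovariectomy, 28 of 48 large-subunit genes were lower with a median of -0.05, and 10 of 25 small-subunit genes with a median of 0.04. The difference between subunits or classes was not tested.

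The stalk of the large subunit, where translation factors dock, is represented by Mrpl12 and its base Mrpl10. Mrpl12 had 9.93 and 9.83 in sham, 9.67 and 10.33 after ovariectomy, 9.54 and 9.93 under early and 9.98 and 9.91 under late estradiol. The ovariectomy arrays enclosed most of the others, and early estradiol differed from ovariectomy by -0.27 ± 0.23. Mrpl10 ran from 7.01 to 7.43 over the 8 arrays, with both of these in the ovariectomy group. Mrps12, the counterpart of bacterial S12 at the decoding centre, ran from 7.90 to 8.36. Late estradiol differed from ovariectomy by -0.28 ± 0.22, and the groups did not overlap.

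Mitochondria have 3 forms of the bacterial protein S18, each from a gene of its own. Mrps18b, in the small subunit, stayed within 8.66 and 8.87 on all 8 arrays. Mrps18a, in the large subunit, had 7.21 and 7.74 with early estradiol and 7.60 and 7.92 after ovariectomy, and differed by -0.29 ± 0.26. Mrps18c, in the small subunit, stood at 0.31 ± 0.26 for late estradiol against ovariectomy, with its other probe sets at -0.47 and 0.23. Differences of opposite sign between probe sets of Mrps18c were seen in all 6 comparisons.

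Mrpl3, Mrps22, Mrps16 and Mrpl44 are genes whose inherited loss of function impairs the respiratory chain in people, in several cases with cardiomyopathy. Mrpl3 had 9.33 and 9.59 in sham, 9.39 and 9.44 after ovariectomy, 9.24 and 9.49 under early and 8.81 and 9.54 under late estradiol. Only late estradiol replicate 1 stood apart, and late estradiol differed from ovariectomy by -0.24 ± 0.24. Mrps16 ran from 9.52 to 9.99, with replicate 2 above replicate 1 in all 4 groups. Mrpl44, an RNase III-like protein of the large subunit, had 7.61 and 7.63 in sham and 7.43 and 7.30 after ovariectomy, and differed by -0.26 ± 0.25. Mrps22 followed the replicate number, as described below. Mrps30 differed by -0.30 ± 0.23 for late estradiol against ovariectomy, with -0.75 between the replicate 1 arrays and 0.14 between the replicate 2 arrays. It was -0.11 without late estradiol replicate 1, -0.49 without replicate 2, and -0.05 and -0.55 without ovariectomy replicates 1 and 2. For early estradiol against ovariectomy, Mrps28 differed by -0.17 ± 0.19 and Mrpl41 by -0.18 ± 0.21, the latter with -0.32 and -0.05 between the replicate 1 and replicate 2 arrays. For Mrps30, Mrps28 and Mrpl41 the smallest unadjusted p values over the 6 comparisons were 0.189, 0.133 and 0.211 (limma).

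Of the 73 genes, 18 have more than 1 probe set, which adds 24 probe sets, of which 18 passed the filter. The added probe sets had the sign of the brightest in 11 of 24 for ovariectomy against sham, 13 for early and 15 for late estradiol against ovariectomy, 16 for late against early, and 15 and 11 for early and late against sham. At least 1 added probe set differed in sign for 10, 8, 9, 7, 9 and 12 genes in that order. Mrpl51, Mrps18c and Mrps22 were among them in all 6 comparisons, and Mrps2 in all but early estradiol against sham. Mrps9 was among them in the comparisons of late estradiol with ovariectomy, early estradiol and sham, at -0.05, -0.16 and -0.15 against 0.73, 0.52 and 0.41 in the second probe set. Others were Mrpl37, Mrpl40, Mrpl49, Mrpl52, Mrps24 and Mrpl10 for ovariectomy against sham, Mrpl37, Mrpl50, Mrpl52 and Mrps26 for early and Mrpl12, Mrpl49, Mrpl50 and Mrps24 for late estradiol against ovariectomy. Against sham they were Mrpl37, Mrpl52, Mrpl57, Mrps26, Mrps27 and Mrps9 for early and Mrpl10, Mrpl52, Mrpl57, Mrps14, Mrps15, Mrps24 and Mrps27 for late estradiol, and for late against early Mrpl49 and Mrps26. The differences of single genes given here belong to the brightest probe set.

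Several genes followed the replicate number more than the group. For 24 of 73 members replicate 2 was above replicate 1 in all 4 groups (32.9%, against 15.0% of all probe sets), and for 8 it was below in all 4 (11.0%, against 13.3%). The members' median shift from replicate 1 to replicate 2 was 0.04 in sham, 0.09 after ovariectomy, 0.17 under early and 0.19 under late estradiol, against 0 to 0.04 over all probe sets. Mrps11, the counterpart of bacterial S11, had 7.36 and 7.90 in sham, 7.09 and 7.92 after ovariectomy, 6.93 and 7.78 under early and 6.63 and 7.76 under late estradiol. Its replicate 2 arrays stayed between 7.76 and 7.92. Mrpl46 had 7.17 and 7.61, 7.06 and 7.72, 7.00 and 7.64, and 6.59 and 7.50 in the same order. Mrps22 went the other way, with 7.90 and 7.66, 8.23 and 7.25, 7.90 and 7.23, and 8.38 and 7.59. What the replicate number stands for is not stated in the labels.

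**Figure D4:**
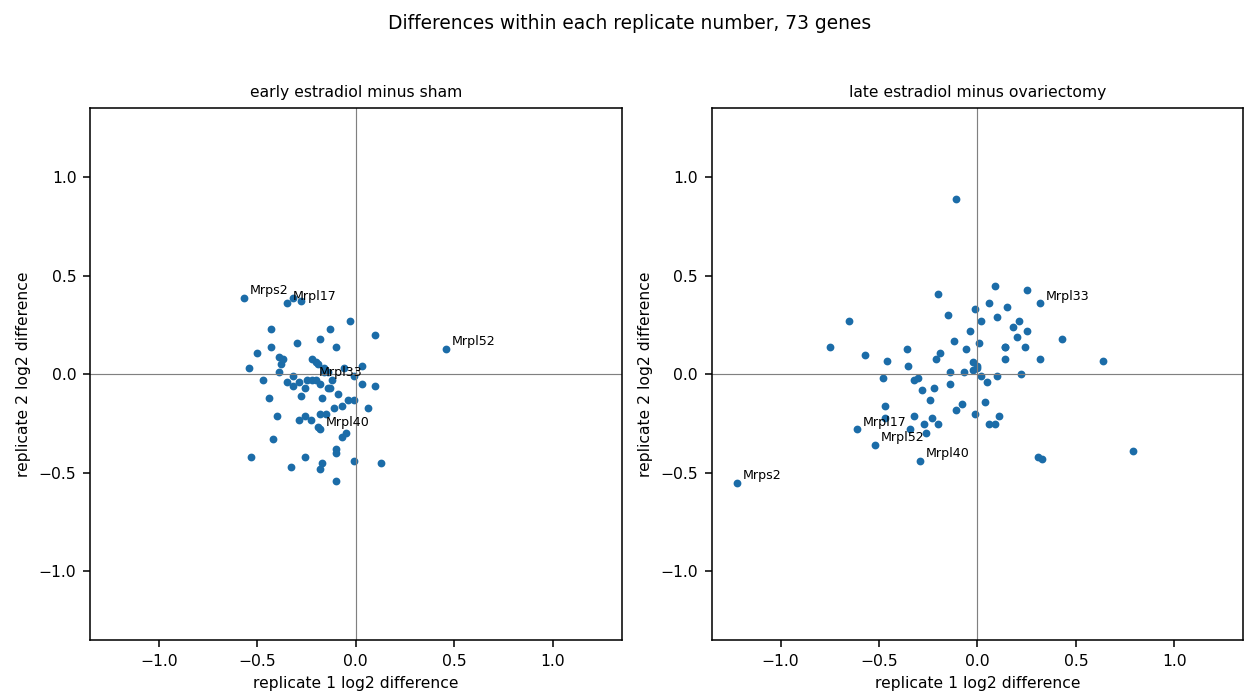
Each point is 1 of the 73 genes, with its log2 difference between the replicate 1 arrays on the horizontal and between the replicate 2 arrays on the vertical axis, for early estradiol minus sham and late estradiol minus ovariectomy. In the first panel 66 genes lie left of 0 and 46 below 0, and in the second Mrps2 lies farthest to the lower left, at -1.22 and -0.55.

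Mrps11 and Mrpl46 are neighbours that are transcribed away from each other, with starts 234 bases apart. Their signals correlated at r = 0.98 (Spearman's rho = 0.98) over the 8 arrays, and at 0.92 after the means of each replicate number were taken out. Without the 2 arrays farthest from the median r was 0.98. The points share the arrays, the replicate number and the pools. The stretch between the starts is shown because the pair moves together. It lies at chr1:142117031-142117263 in GRCr8 and is written 5′ to 3′ along the plus strand, from Mrpl46 to Mrps11.
Mrps11 and Mrpl46: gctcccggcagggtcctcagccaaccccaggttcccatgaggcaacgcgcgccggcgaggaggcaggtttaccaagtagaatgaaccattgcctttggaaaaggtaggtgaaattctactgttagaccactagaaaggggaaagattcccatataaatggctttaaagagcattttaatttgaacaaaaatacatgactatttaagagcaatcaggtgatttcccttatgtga
None of the 4 motifs searched was found in it.

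Head-to-head placement was frequent among the members. Of 59 members with a RefSeq promoter, 18 (30.5%) had another gene starting on the opposite strand within 1000 bases, against 11.4% of all genes with a promoter and 14.6% of those on the array. For 12 such pairs both genes were measured, and their r over the 8 arrays had a median of -0.13 and ran from -0.60 to 0.98. Over all 382 head-to-head pairs measured the median was 0.075, with a range of -0.94 to 0.99. Besides Mrps11 and Mrpl46, Mrpl32 and Psma2, a proteasome subunit, had r = 0.83, with starts 210 bases apart. The most negative were Mrpl47 and Ndufb5, a subunit of respiratory complex I, at r = -0.60. Mrps18c and Helq, a DNA helicase, had -0.58, Mrpl18 and Tcp1, a chaperonin subunit, -0.55, and Mrpl40 and Hira, a histone chaperone, -0.48. In that order, Spearman's rho was -0.78, -0.21, -0.45 and -0.41. With the means of each replicate number taken out, r was -0.41, -0.48, -0.15 and -0.56. Without the 2 arrays farthest from the median it was -0.70, -0.33, -0.50 and -0.70. Mrpl32 and Psma2 had 0.81 and 0.72 under these settings. Leaving out 2 arrays in this way moved r from 0.0 to 0.92 for Mrps27 and Ptcd2. It moved from -0.32 to 0.73 for Mrps7 and Gga3, so r was unstable for some pairs.

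Matches to 4 motifs were counted in the 59 promoters, from 250 bases before to 50 after the start, on both strands. The motifs were those of factors known to drive genes of mitochondria or ribosomes. CCGGAAG, the ETS core that GABP binds, was found in 20 members (33.9%), against 9.63% of all 27457 promoters and 15.4% of those of genes on the array. AAGATGG, the core of YY1, was found in 15 (25.4%), against 7.77% and 8.22%. GCATGCG, the core of NRF1, was found in 6 (10.2%), against 3.70% and 5.58%. These were Mrpl10, Mrpl17, Mrpl22, Mrpl32, Mrpl44 and Mrps18b. The E-box CACGTG was found in 6 (10.2%), against 7.08% and 9.38%. The NRF1 or the ETS core was found in 25 members (42.4%), against 12.6% and 19.8%. GC content had a median of 56.0% in the members' promoters, 52.3% in all promoters and 60% in those of genes on the array.

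The rest of the machinery of mitochondrial translation was read from lists of known genes, none of which passed in any comparison (limma, Benjamini-Hochberg). With early estradiol against sham, 5 of 5 other mitochondrial ribosomal proteins were lower, with a median of -0.12. These are Dap3, Ptcd3, Chchd1, Aurkaip1 and Gadd45gip1, which carry other names. Their mean log2 signal was 8.20 on early estradiol replicate 1, 8.47 on replicate 2, and 8.54 and 8.40 in sham. Of the 20 ribosome assembly factors, such as the GTPases Mtg1 and Mtg2, 14 were lower with a median of -0.13. Translation factors were lower for 6 of 10 with -0.07, mitochondrial aminoacyl-tRNA synthetases for 9 of 13 with -0.08, and genes of mitochondrial DNA upkeep and transcription for 8 of 11 with -0.02. Upstream regulators such as Ppargc1a and Esrra were lower for 7 of 9 with -0.11. The cytosolic ribosomal proteins lay on the other side, with 33 of 44 higher and a median of 0.06.

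With early estradiol against ovariectomy the medians of these lists were 0 for the other mitochondrial ribosomal proteins, -0.10 for assembly factors, 0.06 for translation factors, -0.10 for synthetases, 0.09 for mitochondrial DNA and transcription, -0.01 for regulators and 0.02 for cytosolic ribosomal proteins. With late estradiol against ovariectomy they were -0.07, -0.08, -0.10, -0.13, 0.10, -0.03 and 0.08 in the same order. Cytosolic ribosomal proteins were higher for 36 of 44 there. In this comparison 1 translation factor, 1 regulator and 1 cytosolic ribosomal protein had an unadjusted p under 0.05, and the former 2 are named after their values were seen. Mtif2, the initiation factor that brings the first tRNA to the mitochondrial ribosome, had 7.34 and 8.04 in sham, 7.10 and 7.85 after ovariectomy, 7.93 and 7.27 under early and 8.33 and 8.52 under late estradiol. The late arrays were the highest, and late estradiol differed from ovariectomy by 0.95 ± 0.34 (limma unadjusted p = 0.0187). Ppargc1a, a coactivator of mitochondrial biogenesis, had 8.16 and 8.25 in sham, 8.40 and 7.70 after ovariectomy, 8.44 and 7.91 under early and 8.88 and 8.52 under late estradiol. Its late arrays were the highest as well, and the difference was 0.66 ± 0.28 (limma unadjusted p = 0.0415). Others in these lists went the other way. Of the regulators 4 were higher and 5 lower, Nrf1 most at -1.33 ± 0.82. Of the translation factors 4 were higher and 6 lower, Mtrf1 most at -0.99 ± 0.67, with 3.63 and 6.25 under late estradiol.

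**Figure D5:**
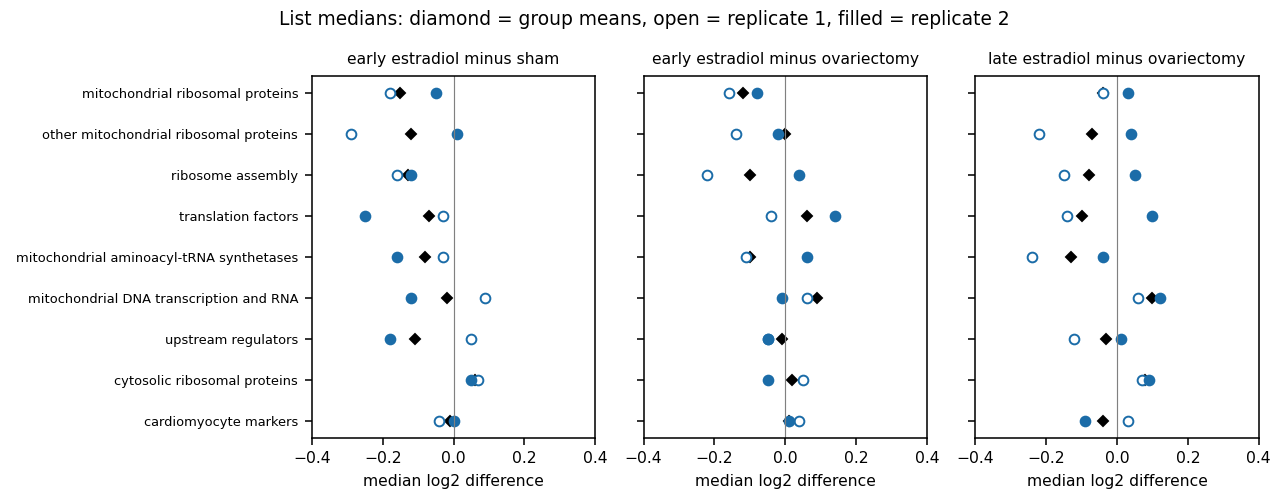
Median log2 difference of each gene list for early estradiol minus sham, early estradiol minus ovariectomy and late estradiol minus ovariectomy, from group means (diamond), the replicate 1 arrays (open circle) and the replicate 2 arrays (filled circle). The 73 mitochondrial ribosomal protein genes lie left of 0 in the first 2 panels, at -0.15 and -0.12, and the cytosolic ribosomal proteins right of 0, at 0.06 and 0.02; the second value of the former is 0.10 without normalization between arrays, where all probe sets have 0.18.

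Markers of other cells of the heart also differed in level between these groups. For early estradiol against sham, 8 of 9 macrophage markers were higher with a median of 0.66. Their mean log2 signal was 6.06 and 6.88 in sham and 7.28 and 7.11 with early estradiol. The first of these means was lowered by 1 gene, Aif1, which had -0.18 on sham replicate 1. The next lowest array of Aif1, ovariectomy replicate 1, had 4.07. All 8 fibroblast markers were higher with a median of 0.24, with means of 8.61 and 8.50 in sham and 9.11 and 8.79 with early estradiol. The 7 cardiomyocyte markers had a median of -0.01, the 5 endothelial markers 0.10 and the 2 adipocyte markers kept 0.26. For late estradiol against ovariectomy, all 8 fibroblast markers were lower with a median of -1.05, and 7 of 9 macrophage markers were lower with -0.53. The endothelial markers had 0.41, the adipocyte markers 0.22 and the cardiomyocyte markers -0.04. The fibroblast markers had means of 8.90 and 9.21 after ovariectomy and 7.94 and 8.25 with late estradiol, and the macrophage markers 6.39 and 7.82, then 6.01 and 6.85. For late against early estradiol, 7 of 8 fibroblast markers were lower with a median of -1.0, and 9 of 9 macrophage markers with -0.57. Of the fibroblast markers 6 had an unadjusted p under 0.05, where 3.87% of all probe sets did, and 0 passed the adjusted threshold (limma). Late estradiol had 6 such markers against ovariectomy (4.36% of all probe sets) and 4 against sham (3.37%). Ovariectomy had 3 against sham (1.47%), and early estradiol 2 against sham (0.773%) and 1 against ovariectomy (1.71%). For ovariectomy against sham, 8 of 8 fibroblast markers were higher with 0.34 and 8 of 9 macrophage markers with 0.22. The fibroblast median was 0.14 between the replicate 1 and 0.64 between the replicate 2 arrays, and the macrophage median 0.03 and 0.83. For early estradiol against ovariectomy the fibroblast and macrophage lists had -0.03 and 0.04, but the replicate numbers went opposite ways. The fibroblast median was 0.16 between the replicate 1 and -0.41 between the replicate 2 arrays, and the macrophage median 1.02 and -0.6. For late estradiol against sham these lists had -0.48 and -0.34. The part of these cells in the members' differences was not tested.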

How the data were processed

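Per the labels, 8 Affymetrix arrays held pooled heart RNA, 2 pools of 3 hearts for each of 4 groups. The authors deposited linear signal intensity values that, per the submitters' processing notes, came from MAS5. Neither its version nor a scaling target is stated there. The arrays were not on a common scale, so log2 values were quantile-normalized. Of 31099 probe sets, 57 controls were left out, and 18625 were tested, those from percentile 40 of mean log2 signal upward. Symbols came from the platform annotation, and all 73 members matched RefSeq (GRCr8) by Entrez number. RefSeq promoters were found for 59 members.

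Group means were fitted over all 8 arrays with limma 3.58.1 in R 4.3.3, with an intensity trend, 4 residual degrees of freedom, two-sided tests and Benjamini-Hochberg adjustment over the 18625 probe sets at 0.05. With 2 arrays against 2, a permutation test cannot go below 0.333. The number of arrays limits the precision. Lists are described by counts and medians.

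The groups share replicate numbers 1 and 2 in the labels. Across genes, the shift from replicate 1 to 2 correlated between groups at r = 0.28 to 0.33 in all 6 pairs of groups. Differences are therefore also given within each replicate number. The main fit does not use the number, and the standard errors, p values and residual SDs come from it unless stated. With the block the median residual SD was 0.138 over the members and 0.33 over all probe sets kept. That fit, with 3 residual degrees of freedom, is an alternative. Other alternatives were no or median scaling, other filters, 32 added before log2, probe sets averaged per gene, no intensity trend, and each array left out.

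The members, lists and rules were chosen with earlier results of these data known. The genes named were, in each comparison and direction, the 3 of smallest p, then the 5 brightest, dimmest, steadiest and most variable, genes of known role, and those whose probe sets differ in sign. Pairs and motifs in the promoters were named after their values were seen.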

Additional observations from a re-analysis of the deposited data

How the results depend on the processing

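Under 17 alternatives, 0 members passed in any comparison (limma, Benjamini-Hochberg). The 36 results of named genes gave 612 values, of which 593 kept their direction and 19 reversed, and 0 passed. Other filters, no intensity trend and the replicate block cannot change a group difference. Leaving out an array of a group outside the comparison changes it only through the normalization. Many of the values that kept their direction were therefore fixed, or nearly so, in advance. The scaling of the arrays moved the members' medians most. Without normalization between arrays they were -0.42 for ovariectomy and -0.80 for late estradiol against sham, 0.10 and -0.41 for early and late estradiol against ovariectomy, -0.52 for late against early and -0.30 for early against sham. After median scaling they were -0.28, -0.42, 0.12, -0.16 and -0.29 for the same first 5. All probe sets moved too, to medians of -0.31, -0.62, 0.18, -0.31, -0.48 and -0.14 without normalization and -0.17, -0.23, 0.20, -0.06 and -0.25 after median scaling. Without the 2 dimmest arrays the medians were 0.03 for late estradiol against ovariectomy and 0.16 for late against early. With 1 array left out at a time, they ranged from -0.07 to 0.01 for ovariectomy against sham, -0.20 to -0.02 and -0.10 to 0.04 for early and late estradiol against ovariectomy, -0.04 to 0.16 for late against early, and -0.22 to -0.04 and -0.15 to 0.03 for early and late against sham. Reversed without normalization were Mrpl47 for ovariectomy against sham (-0.15), Mrpl33, Mrpl51 and Mrps35 for late estradiol against ovariectomy (-0.03, -0.06, -0.04), Mrpl13, Mrps35 and Mrps21 against early estradiol (-0.22, -0.10, -0.30), Mrps21, Mrps35 and Mrpl53 against sham (-0.45, -0.40, -0.53), and Mrpl34 for early estradiol against sham (-0.02). After median scaling Mrpl47 (-0.02), Mrps21 against early estradiol and sham (-0.07 each), Mrps35 (-0.02) and Mrpl53 (-0.14) reversed. As the mean of its probe sets Mrpl51 was 0.03 for ovariectomy against sham and -0.03 for early estradiol against ovariectomy. Mrps34 for late against early estradiol ranged from -0.62 without early estradiol replicate 1 to 0.14 without early estradiol replicate 2. The fit with the replicate number as a block could not change any median, since each group has 1 array of each replicate number. It called 0 members. Of all probe sets, none of those called a member, it called 1 for late estradiol against ovariectomy, as did no filter, a stricter filter and 32 added before log2, each 1. Without the 2 dimmest arrays 5 were called for ovariectomy against sham. With 1 array left out, 0 to 3 were called there, 0 to 65 for late estradiol against ovariectomy, 0 to 100 against early estradiol and 0 to 86 against sham, the highest of these last 3 ranges each without late estradiol replicate 2. The cause was not tested.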
